A study of Homo sapiens with 6 samples.

Results

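Cholesterol synthesis and uptake genes were examined in Huh7, a long-established line of human hepatocellular carcinoma cells. The genes comprised 29 named enzymes, regulators, transporters and acyltransferases, and a gene's members on the array were all probe sets whose platform symbol was one of these names. Of the 29 genes 28 were measured, by 73 of the 49293 probe sets tested, among 18132 genes in all. FDFT1, the squalene synthase gene, was not analysed here. The tested arrays were 3 of cells labelled KCa3.1 silenced, with the genotype given as KCa3.1 knockdown, and they were set against 3 arrays of control cells. All cells were of the same line, in logarithmic growth, with medium renewed the day before RNA was taken. The labels name neither the silencing reagent nor what the control cells received, and they do not say whether each replicate was its own culture. The p-values therefore rest on the spread between these 6 arrays, which may be technical.

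Cells build cholesterol from acetyl-CoA through mevalonate and the isoprenoid farnesyl diphosphate, which the sterol branch joins into squalene and reshapes into cholesterol. When sterol in the endoplasmic reticulum is low, the escort protein SCAP carries SREBP transcription factors to the Golgi, where proteases release their active part. INSIG proteins hold SCAP back when sterol is high. Hepatocytes also take up lipoproteins, whose cholesterol leaves the lysosome through NPC2 and NPC1, and store excess cholesterol as esters.

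The deposited values are taken as log2 values, an assumption on which every fold change here rests, and lie around a baseline of each probe set, so they show differences between arrays and no expression level. Whether a hepatocyte marker was strongly expressed, or a marker of another cell type absent, therefore could not be read from them. In the silenced-labelled arrays 3 of 5 measured hepatocyte markers were higher, AFP, APOA1 and SERPINA1, while ALB and TTR were not called. Of 10 markers of fibroblasts, leukocytes and endothelial cells 1 was higher, the lysozyme gene LYZ (log2 difference 0.34, limma adjusted p = 0.022). That is 10%, where 7.14% of all genes were higher. The part of the markers in the results was not tested. KCNN4, which encodes the KCa3.1 channel, had centred log2 values of -0.055, 0.089 and 0.011 in the silenced-labelled arrays, against -0.0062, 0.13 and -0.073 in the control arrays. The groups overlapped, and the 95% interval of the difference ran from -0.16 to 0.16 (limma adjusted p = 1). The transcript of the targeted gene thus did not bear out the label, and every direction given here is between arrays as labelled.

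Changes of the cholesterol genes were small and ran both ways. A gene was called higher or lower at a Benjamini-Hochberg adjusted p under 0.05 in a limma fit across all genes. By that rule the silenced-labelled arrays were higher in 4 of the 28 genes (14.3%), namely MYLIP, INSIG1, TM7SF2 and SQLE, where 7.14% of all genes were higher. A further 3 (10.7%) were lower, namely NPC1, MSMO1 and FDPS, where 6.19% of all genes were lower. The other 21 did not pass. The median log2 difference over the 28 genes was 0.0069, against -0.0058 over all genes, with 14 genes above 0 and 14 below. With the sign set aside, the median size was 0.13 over the 28 genes, against 0.079 over all genes. No member reached a 1.5-fold change as the mean of its probe sets, and the 95% interval lay within 1.5-fold either way for 27 of the 28, MYLIP being the exception. The silenced-labelled and control values were fully apart in 10 of the 28 genes (35.7%), against 29.3% of all genes.

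The promoters of 4 called genes and of SREBF2 are shown because they place the sequence motifs of sterol control beside genes that were higher, lower or not called. Windows of 250 bases before to 50 bases after the start of transcription were taken from RefSeq (GRCh38.p14), which held 31 windows for 24 of the 28 measured genes, several with overlapping windows for alternative starts. Capitals mark the sterol regulatory element core (TCACNCCAC), the CCAAT box bound by NF-Y (CCAAT), the E-box (CACGTG) and the GC box bound by Sp1-type factors (GGGCGG), each on either strand. Neighbouring GC boxes share a base in INSIG1 and in SREBF2. The INSIG1 window is chr7:155297628-155297927, plus strand. The TM7SF2 window is chr11:65111622-65111921, plus strand. The MSMO1 window is chr4:165327419-165327718, plus strand. The NPC1 window is chr18:23586457-23586756, minus strand, and the SREBF2 window is chr22:41832855-41833154, plus strand.
INSIG1: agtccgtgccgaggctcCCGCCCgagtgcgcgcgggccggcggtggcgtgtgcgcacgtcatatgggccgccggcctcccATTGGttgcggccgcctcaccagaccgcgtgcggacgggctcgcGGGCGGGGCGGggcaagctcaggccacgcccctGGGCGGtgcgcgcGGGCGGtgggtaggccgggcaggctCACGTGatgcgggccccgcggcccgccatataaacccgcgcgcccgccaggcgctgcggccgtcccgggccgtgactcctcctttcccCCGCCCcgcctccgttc
TM7SF2: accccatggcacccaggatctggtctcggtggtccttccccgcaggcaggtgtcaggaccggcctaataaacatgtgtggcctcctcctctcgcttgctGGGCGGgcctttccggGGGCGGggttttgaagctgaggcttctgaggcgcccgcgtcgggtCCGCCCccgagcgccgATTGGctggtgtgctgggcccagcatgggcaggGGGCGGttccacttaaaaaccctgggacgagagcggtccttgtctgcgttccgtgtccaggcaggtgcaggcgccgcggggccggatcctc
MSMO1: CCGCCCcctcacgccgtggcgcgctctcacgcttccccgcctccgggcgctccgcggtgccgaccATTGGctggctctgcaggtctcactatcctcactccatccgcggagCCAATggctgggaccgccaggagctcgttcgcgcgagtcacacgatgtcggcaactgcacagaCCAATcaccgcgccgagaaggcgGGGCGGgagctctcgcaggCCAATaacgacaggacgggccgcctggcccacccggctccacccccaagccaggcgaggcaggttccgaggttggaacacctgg
NPC1: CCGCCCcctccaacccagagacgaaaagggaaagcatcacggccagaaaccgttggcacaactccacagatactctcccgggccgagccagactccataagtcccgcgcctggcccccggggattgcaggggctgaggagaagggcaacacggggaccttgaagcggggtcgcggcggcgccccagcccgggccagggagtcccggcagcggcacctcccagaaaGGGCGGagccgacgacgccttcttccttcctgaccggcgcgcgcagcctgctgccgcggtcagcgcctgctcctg
SREBF2: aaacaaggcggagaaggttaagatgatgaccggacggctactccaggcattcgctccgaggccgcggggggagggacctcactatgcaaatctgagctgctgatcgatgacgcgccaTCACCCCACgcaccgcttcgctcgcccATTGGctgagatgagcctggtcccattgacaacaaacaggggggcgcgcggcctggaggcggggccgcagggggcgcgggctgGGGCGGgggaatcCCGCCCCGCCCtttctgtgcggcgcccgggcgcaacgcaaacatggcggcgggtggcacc

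The core element was found in 1 of the 31 windows, that of SREBF2, as TCACCCCAC with its first base at -133 from the transcription start, and in 1.13% of the 35116 windows of the table. A CCAAT box lay in 22 of the 31 windows (71%), against 34.6% of all windows. It occurred in the windows of MYLIP, INSIG1 and TM7SF2, which were higher, and of MSMO1 and FDPS, which were lower. The NPC1 window held GC boxes alone among the motifs searched. A GC box was in 28 of the 31 windows (90.3%), against 45% of all, and an E-box in 5 (16.1%), against 7.26%. A match describes letters in the window and not a bound site. Only the letters given were searched, within these windows. A window without a match may thus belong to a gene with a variant or more distant element.

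Among the 5 regulators, 2 were higher and 3 did not pass, and the retention factor INSIG1 was one of those higher. INSIG1 had centred log2 values of 0.072, 0.12 and 0.11 in the silenced-labelled arrays, against -0.37, -0.18 and -0.23 in the control arrays. All 3 silenced-labelled arrays lay above 0 and all 3 controls below it, with control replicate 1 the lowest. The means were 0.10 ± 0.027 and -0.26 ± 0.097 (SD, n = 3 each), a rise of 0.36 (1.28-fold, SE 0.063, limma adjusted p = 0.0056), and all 3 probe sets of the gene were higher. Its paralogue INSIG2 did not pass, with a log2 difference of -0.10 and a 95% interval of -0.23 to 0.032 that lies wholly below the interval of INSIG1, 0.22 to 0.50.

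MYLIP encodes a ubiquitin ligase, also called IDOL, that marks lipoprotein receptors for degradation and is a target of the sterol-sensing LXR receptors. Its values were 0.021, 0.17 and 0.13 in the silenced-labelled arrays and -0.55, -0.30 and -0.27 in the control arrays. The groups did not overlap, although control replicate 1 lay well below the other controls. MYLIP rose by 0.48 (1.39-fold, SE 0.084, limma adjusted p = 0.0056), the largest difference among the 28 genes. Its 3 probe sets differed in size, with differences of 0.13, 0.51 and 0.80, and only the last passed the test across probe sets. The difference was 0.80 with the most variable probe set in place of the mean.

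SREBF2, which encodes the transcription factor SREBP2, had values of -0.075, -0.13 and -0.12 in the silenced-labelled arrays, against 0.012, 0.13 and 0.074 in the control arrays. The groups did not overlap, and the difference of -0.18 (SE 0.056) missed the threshold (limma adjusted p = 0.068). Of its 3 probe sets 1 was lower, with a difference of -0.29. SCAP, the escort protein gene, did not pass, with a difference of 0.041 and a 95% interval of -0.089 to 0.17.

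**Figure D1:**
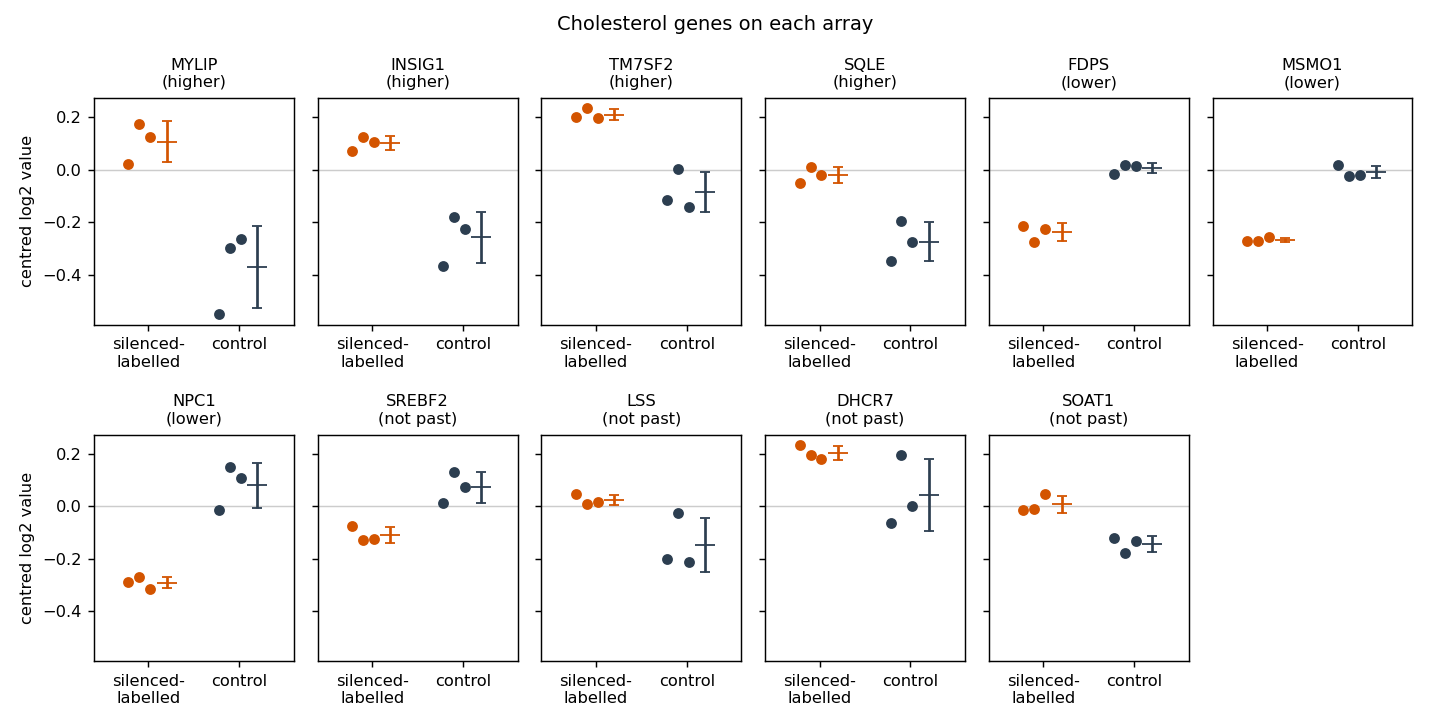
Centred log2 value (vertical axis) on each array for the 7 called genes and the 4 largest differences among those not called. Points are arrays, orange for silenced-labelled and dark for control, and the bar beside them is the mean with its SD (n = 3). Groups are apart in 10 of the 11 panels and overlap in DHCR7, but the panels were picked by call or size of difference, which favours separation. Over all 28 genes 35.7% are apart, against 29.3% of all genes on the array.

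Of the 7 mevalonate enzymes limma called 1 lower and 0 higher, and 6 did not pass. The counts were the same, 1 and 0, at an unadjusted p under 0.05. By the same limma fit 4467 of all 18132 genes had an unadjusted p under 0.05, 2302 of them higher and 2165 lower. The lower gene was FDPS, the farnesyl diphosphate synthase whose product feeds sterols and protein prenylation alike. Its values were -0.21, -0.28 and -0.22 in the silenced-labelled arrays and -0.016, 0.019 and 0.013 in the control arrays. Each group was tight, and FDPS fell by 0.24 in log2 units (SE 0.052, limma adjusted p = 0.014), with both probe sets lower. The call was lost without silenced replicate 2 or 3, or without control replicate 3 (adjusted p = 0.056, 0.053 and 0.05), and with the most variable probe set (adjusted p = 0.068). HMGCS1, which makes the substrate of the rate-limiting reductase, differed by 0.039, with a 95% interval of -0.082 to 0.16. The thiolase gene ACAT2, the kinase genes MVK and PMVK, the decarboxylase gene MVD and the isomerase gene IDI1 had differences from -0.14 (MVK) to 0.13 (PMVK).

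Of the 9 measured sterol enzymes 2 were higher, 1 was lower and 6 did not pass. SQLE, the squalene epoxidase of the first oxygen-dependent step, had values of -0.050, 0.0097 and -0.021 in the silenced-labelled arrays, against -0.35, -0.20 and -0.28 in the control arrays. It rose by 0.25 (1.19-fold, SE 0.059, limma adjusted p = 0.021), with all 4 probe sets above 0 and 1 of them past the threshold. Its call was lost without silenced replicate 2 or 3 or control replicate 1 or 3, where the adjusted p lay between 0.052 and 0.076. The adjusted p was 0.19 with the most variable probe set and 0.092 with its single plain-type probe set, one whose name carries no suffix letter for probes shared between transcripts.

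LSS, the lanosterol synthase of the next step, had values of 0.046, 0.011 and 0.018 in the silenced-labelled arrays and -0.20, -0.027 and -0.21 in the control arrays. The groups did not overlap, but control replicate 2 lay close to the silenced-labelled arrays, and the difference of 0.17 (SE 0.064) did not pass (limma adjusted p = 0.13). Without control replicate 2 it was 0.23 and passed (adjusted p = 0.047). It did not pass without any other single array (limma adjusted p from 0.22 to 0.32).

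TM7SF2, a sterol reductase that acts after lanosterol, had values of 0.20, 0.23 and 0.20 in the silenced-labelled arrays, against -0.11, 0.0009 and -0.14 in the control arrays. It rose by 0.30 (1.23-fold, SE 0.058, limma adjusted p = 0.0099), and 3 of its 5 probe sets were higher. MSMO1, the methylsterol oxidase of the following demethylation, went the other way. Its values were -0.27, -0.27 and -0.26 in the silenced-labelled arrays and 0.017, -0.024 and -0.022 in the control arrays. MSMO1 fell by 0.26 in log2 units (SE 0.050, limma adjusted p = 0.0095) and had the smallest spread within groups of the 28 genes, a pooled SD of 0.017. Its 4 probe sets gave differences from -0.42 to -0.057, of which 2 passed, and the smallest was that of its single plain-type probe set, with which alone the call was lost (adjusted p = 0.84).

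The partners of MSMO1 in that demethylation, NSDHL and HSD17B7, did not pass, with differences of -0.092 and -0.14. HSD17B7 had 1 probe set and the widest spread of the 28 genes, with -0.32, -0.26 and -0.18 in the silenced-labelled arrays, against -0.35, 0 and 0.017 in the control arrays. Without control replicate 1, its lowest control, the difference was -0.26 and passed (limma adjusted p = 0.037). It did not pass without any other single array (limma adjusted p from 0.47 to 0.77).

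Of the enzymes that finish the molecule, the isomerase gene EBP and the desaturase gene SC5D had differences of 0.098 and -0.017. DHCR7, a terminal reductase, had values of 0.23, 0.20 and 0.18 in the silenced-labelled arrays and -0.065, 0.20 and 0 in the control arrays. Control replicate 2 overlapped with the silenced-labelled arrays, and the difference of 0.16 did not pass (SE 0.073, limma adjusted p = 0.22).

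**Figure D2:**
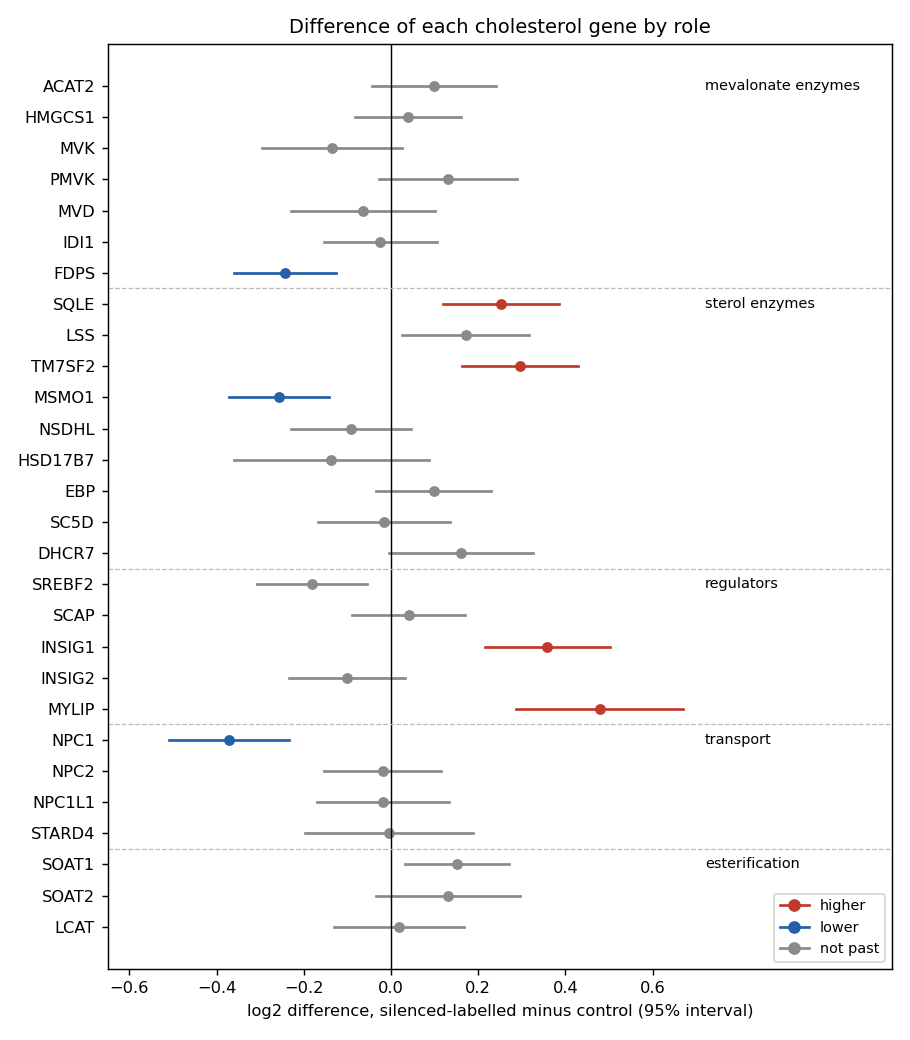
Log2 difference, silenced-labelled minus control (horizontal axis), of each of the 28 genes with its 95% interval from limma, in role order from top to bottom. Red genes were higher, blue genes lower, and grey genes did not pass an adjusted p under 0.05. Called genes lie on both sides of 0 among the sterol enzymes.

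Of the 4 transport genes 1 was lower and 3 did not pass. The lower gene was NPC1, the lysosomal membrane protein that exports cholesterol released from lipoproteins. Its values were -0.29, -0.27 and -0.31 in the silenced-labelled arrays, against -0.015, 0.15 and 0.11 in the control arrays. NPC1 fell by 0.37 in log2 units (SE 0.060, limma adjusted p = 0.0036, the lowest among the 28 genes), and both of its probe sets were lower. NPC2, the soluble protein that hands cholesterol to NPC1, did not pass (difference -0.020), and its 95% interval of -0.15 to 0.11 lies above that of NPC1, -0.51 to -0.24. NPC1L1, the sterol importer of the cell surface, and STARD4, a cytosolic sterol carrier, had differences of -0.018 and -0.0049. The 5 probe sets of STARD4 ranged from -0.22 to 0.098.

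None of the 3 esterification genes passed (limma, 0 called), and 1 had an unadjusted p under 0.05, as 4467 of all 18132 genes did. That gene was SOAT1, which encodes the broadly expressed acyltransferase of cholesterol, with values of -0.014, -0.0080 and 0.046 in the silenced-labelled arrays and -0.12, -0.18 and -0.13 in the control arrays. The groups did not overlap, and the difference was 0.15 (SE 0.052, limma adjusted p = 0.1), with its 3 probe sets between 0.14 and 0.16. SOAT2, the acyltransferase of liver and intestine, differed by 0.13 and LCAT, the plasma acyltransferase, by 0.019, each from 1 probe set.

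Probe sets of the same gene mostly had the same sign. In 19 of the 22 genes with several probe sets all differences lay on 1 side of 0, the other 3 being SC5D, NPC2 and STARD4. Of the 73 probe sets 8 were higher (11%) and 7 lower (9.59%), where 5.82% and 4.85% of all probe sets were. All probe sets passed in 3 of the 7 called genes, INSIG1, FDPS and NPC1. The probe set counts moved by over 1.5 times when an array was left out. Those higher numbered 5, 4 and 3 when silenced replicate 1, 2 or 3 was left out, and 3 when control replicate 3 was. Those lower numbered 3 when any silenced array or control replicate 2 was left out, and 2 when control replicate 3 was.

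**Figure D3:**
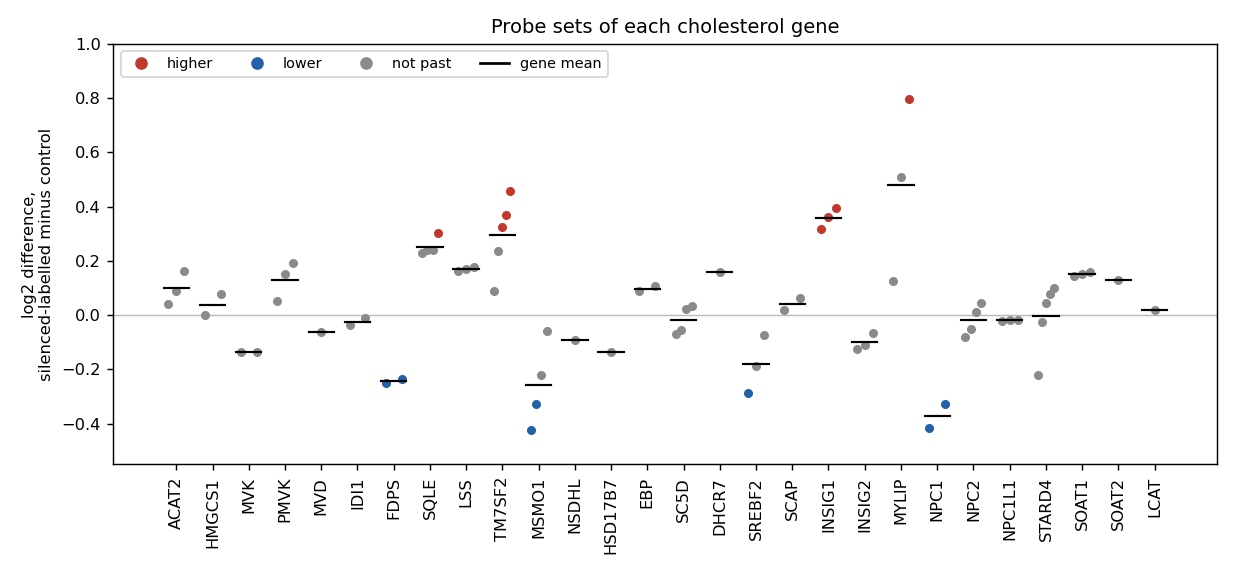
Log2 difference, silenced-labelled minus control (vertical axis), of each of the 73 probe sets, grouped by gene in role order. Points are probe sets, red where higher, blue where lower and grey where not past the threshold, and the black line is the gene's mean. The probe sets of MYLIP spread from 0.13 to 0.80, and those of INSIG1 lie between 0.32 and 0.39.

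Neighbouring pathways held 71 measured genes, of which 58 did not pass, with a median difference of -0.020. The 6 higher made up 8.45% and the 7 lower 9.86%, against 7.14% and 6.19% of all genes. Those shares of all genes stand beside the counts of each list below. In the isoprenoid branch, which uses farnesyl diphosphate for ubiquinone, dolichol and prenylated proteins, none of 14 genes passed by limma (0). The unadjusted p was under 0.05 for 2 of them, and for 4467 of all 18132 genes. Of 9 genes of SREBP processing and sterol-dependent degradation 1 was higher and 1 lower. MBTPS2, the second of the proteases that release SREBP, rose by 0.39 (SE 0.062, limma adjusted p = 0.0034). PAQR3, a Golgi protein that tethers SCAP and SREBP there, fell by 0.36 in log2 units (SE 0.056, limma adjusted p = 0.0032). SREBF1 and the other protease gene MBTPS1 did not pass, with differences of 0.13 and -0.13.

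Of 17 further sterol transport genes 2 were higher and 2 lower. CAV1, the cholesterol-binding coat protein of caveolae, fell by 1.36 on the log2 scale (limma adjusted p = 4e-06), and the lysosomal membrane protein gene SCARB2 fell by 0.33 (limma adjusted p = 0.0063). LIPA, the lysosomal lipase that hydrolyses cholesteryl esters, rose by 0.34 (SE 0.072, limma adjusted p = 0.014), and without silenced replicate 3 its difference of 0.31 did not pass (adjusted p = 0.059). The other higher gene, OSBPL1A of the oxysterol-binding protein family, rose by 0.31 (limma adjusted p = 0.013). Its call was lost without silenced replicate 2 and without control replicate 2 (adjusted p = 0.052 each), and with plain-type probe sets alone, where the difference was 0.087 (adjusted p = 0.82). Of the lysosomal genes named here NPC1 and SCARB2 were thus lower, LIPA higher and NPC2 not called.

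Of 8 lipoprotein receptors and adaptors 2 were lower and none higher (limma, 0), with 3 lower and 2 higher at an unadjusted p under 0.05. At that unadjusted p 2165 of all 18132 genes were lower and 2302 higher. VLDLR had 1 probe set and fell by 0.60 on the log2 scale. MYLIP is known to mark the VLDLR protein for degradation, whereas the arrays measured its transcript, and a link was not tested. The endocytic adaptor gene DAB2 fell by 0.24 on that scale (limma adjusted p = 0.028). The call of DAB2 held without control replicate 1 alone among the 6 arrays, and the adjusted p was 0.051 to 0.093 without any other array and 0.06 with a replicate block. SCARB1 and LRP1, receptors of high-density lipoprotein and of lipoprotein remnants, did not pass, with differences of 0.14 and -0.14.

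Of 9 genes of efflux and LXR signalling 1 was higher. ABCA1, the pump that loads cholesterol onto apolipoprotein and, like MYLIP, a known LXR target, had values of 0.35, 0.31 and 0.21 in the silenced-labelled arrays, against -0.25, -0.33 and -0.28 in the control arrays. ABCA1 rose by 0.57 (SE 0.058, limma adjusted p = 3e-04). Other known LXR targets of this list did not pass, with differences of 0.11 for ABCG1 and 0.16 for LPCAT3. ABCG5 and ABCG8, with 1 probe set each, did not pass either, with differences of -0.056 and 0.0038. Of these genes LPCAT3 alone had an unadjusted limma p under 0.05, as 4467 of all 18132 genes did.

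Of 14 genes of bile acid synthesis, the route by which liver disposes of cholesterol, 2 were higher, 2 lower and 10 did not pass. BAAT, which conjugates bile acids to amino acids, fell by 1.18 on the log2 scale (limma adjusted p = 7e-06). AKR1C4, a hepatic ketosteroid reductase, rose by 0.65 from 1 probe set (limma adjusted p = 0.0054), and CYP39A1, an oxysterol hydroxylase, rose by 0.47 (limma adjusted p = 0.0047). The other lower gene was ACOX2, a peroxisomal oxidase that shortens the side chain of bile acid precursors, which fell by 0.32 in log2 units (limma adjusted p = 0.018). Its adjusted p was 0.072 and 0.077 without silenced replicates 2 and 3, and 0.068 and 0.054 without control replicates 2 and 3. In each of those fits BAAT was the 1 lower gene of the 2 still called. CYP7A1, the rate-limiting enzyme of the classic route, did not pass, with a difference of -0.035 and a 95% interval of -0.19 to 0.12. In RNA pooled from all cells of a culture, a change in every cell and a change in some of them cannot be told apart.

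**Figure D4:**
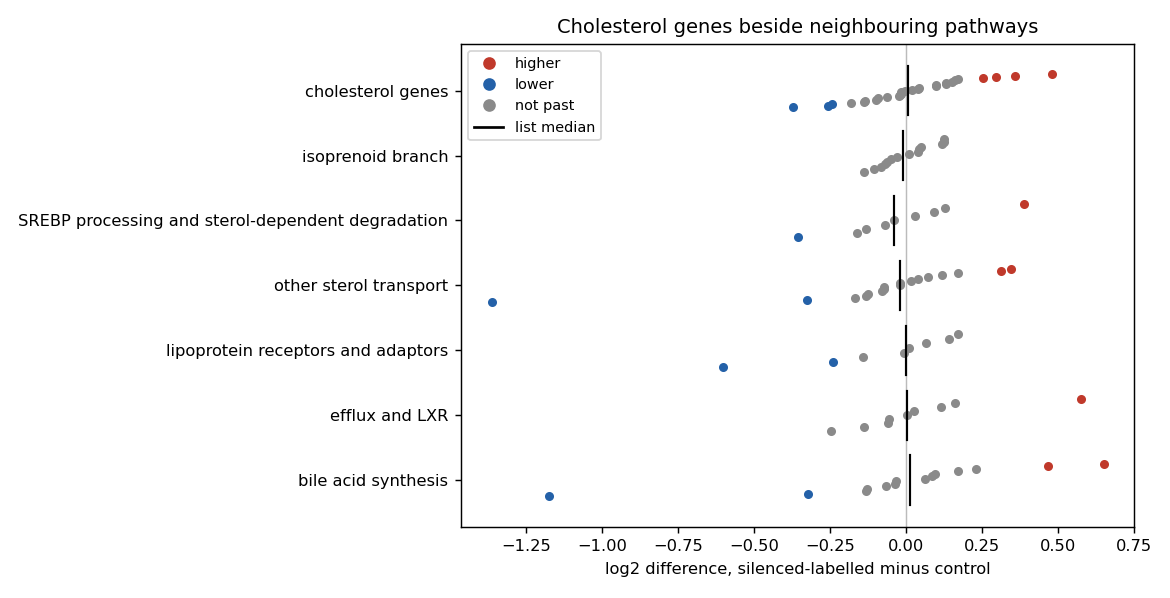
Log2 difference, silenced-labelled minus control (horizontal axis), of the 28 cholesterol genes (top) and of 71 genes of neighbouring pathways. Points are genes, red where higher, blue where lower and grey where not past the threshold, and black lines are list medians. The cholesterol genes lie between -0.37 and 0.48, and CAV1 (-1.36) and BAAT (-1.18) lie farthest from 0.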

How the data were processed

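Biotin-labelled RNA of 6 samples was hybridised to 1-colour Affymetrix arrays. The values deposited by the authors, taken here as log2, were summarised by RMA, as the submitters' processing notes name it without a version. The log base is not stated; base 2, the usual output of RMA, was assumed, and each fold and the 1.5-fold count depend on it. The values lie around a baseline of each probe set, a step not given in the sources used here. An exact 0 occurred on at least 1 array in 75.3% of the 73 member probe sets and 80.6% of all probe sets. Zeros shared by arrays of a group are ties that can narrow the spread. A 0 on a single array is no tie, and these shares do not separate those cases. Of 49395 probe sets 102 controls were left out. Probe sets with 1 platform symbol (44988) were averaged per gene, giving 18132 genes.

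Differences, silenced-labelled minus control, were fitted across all genes, and across all probe sets, with limma 3.58.1 (lmFit, eBayes) in R 4.3.3, adjusted by Benjamini-Hochberg. The number of arrays, 3 per group, limits the precision. Named are the called members, the 4 largest other differences, remaining members by role, and up to 3 called genes per neighbouring list, with OSBPL1A, ACOX2 and some uncalled genes of those lists added after their values were seen. Members and lists were chosen with earlier results of these data known. Promoters were searched for 4 motifs.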

Additional observations from a re-analysis of the deposited data

How the results depend on the processing

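With quantile normalisation repeated and with a robust eBayes prior, the same 7 cholesterol genes were called as in the fit reported. They were called too with flat genes, those of low variance over all arrays, filtered out. That filter kept 15 of the 28 genes. Of the 9066 genes kept in all 23.5% were called, against 13.3% of 18132 in the fit reported. The variance includes the difference between groups, which helps called genes through the filter, so this setting cannot test their calls. MYLIP, INSIG1, TM7SF2, NPC1 and MSMO1 were also called without each array in turn, while counts then ran from 3 to 5 higher and from 2 to 4 lower. With at least a 1.5-fold change asked for, 0 were higher and 0 lower. Probe sets of the plain type covered 4 of the 28 genes, of which limma called 0 higher and 0 lower, with 1 at an unadjusted p under 0.05, and their median was 0.0473. The median over the 28 genes ran from -0.014 to 0.031 without each array in turn, so its sign was not settled. Probe sets ran from 3 to 8 higher and from 2 to 5 lower. With a replicate block the same 7 genes were called, and 4 probe sets were lower in place of 7. The labels do not say whether replicate numbers mark pairs. Deviations of same-numbered arrays from their group means correlated at -0.096, -0.069 and -0.040 across genes. Over all 9 pairs of a silenced-labelled and a control array the correlations ran from -0.38 to 0.38. With 3 arrays per group these values cannot decide whether arrays were paired or shared a batch. Genes near 0 changed sign. Without each array in turn KCNN4 ran from -0.045 to 0.055, IDI1 from -0.062 to 0.0061, SC5D from -0.064 to 0.028, NPC2 from -0.044 to 0.017, NPC1L1 from -0.063 to 0.025, STARD4 from -0.082 to 0.055 and LCAT from -0.018 to 0.068. KCNN4 was 0.0015 with repeated normalisation, and with the most variable probe set it was 0.021 and SC5D 0.035. Some of these settings also held fewer arrays, genes or probe sets, and the cause of the changes was not tested. Levels over background are unknown.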
